A study of Mus musculus with 10 samples.

Results

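The genes described here were 10 members of the acute phase and S100 protein families, Saa3, Lcn2, Hp, Ptx3, S100a4, S100a6, S100a8, S100a9, S100a10 and S100a11. They were chosen by gene symbol as a named list, and all 10 had a row among the 29700 rows of the gene count table that were used. The libraries came from peritoneal macrophages of 8-week-old C57BL/6 mice, recruited to the peritoneal cavity by thioglycollate, an irritant broth, and collected on day 3. The 5 control libraries are labelled untreated, and the 5 ox-LDL libraries came from cells primed with LPS (100 ng/ml), a bacterial endotoxin, and then given oxidized low-density lipoprotein (ox-LDL, 100 µg/ml) for 16 h. The sources differ on whether the control cells also received LPS, so the contributions of LPS and of ox-LDL cannot be told apart here. The libraries are described as 5 biological replicates per group, and elicited macrophages are a recruited population that can hold monocytes, granulocytes and peritoneal lining cells beside macrophages.

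Acute phase proteins are secreted in quantity during inflammation, chiefly by the liver, and several are also made by activated macrophages. Saa3 is the serum amyloid A of macrophages and fat, Lcn2 (lipocalin-2) binds bacterial siderophores and so withholds iron, Hp (haptoglobin) binds free haemoglobin, and Ptx3 is a long pentraxin that recognises microbes and activates complement. S100 proteins are small calcium-binding proteins of the EF-hand type. S100a8 and S100a9 form calprotectin, the main cytosolic protein of neutrophils and a ligand of Tlr4, whereas S100a4, S100a6, S100a10 and S100a11 bind cytoskeletal proteins and annexins, with S100a10 the partner of Anxa2 and S100a11 that of Anxa1.

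Promoter sequence is shown for 3 members that were higher in ox-LDL-treated macrophages, Saa3, Lcn2 and S100a8, and for S100a9, which encodes the partner of S100a8 and was barely detected. Each run is the 250 bases before the transcription start in the RefSeq promoter table (GRCm38.p6), written 5′ to 3′ on the strand of the gene. Capitals mark matches, on either strand, to the C/EBP motif TTNNGNAA or the PU.1 motif GAGGAAGT, and the positions given later count back from the start site. The windows are chr7:46715677-46715926 (minus strand) for Saa3, chr2:32387740-32387989 (minus strand) for Lcn2, chr3:90668821-90669070 (plus strand) for S100a8 and chr3:90695722-90695971 (minus strand) for S100a9.
Saa3: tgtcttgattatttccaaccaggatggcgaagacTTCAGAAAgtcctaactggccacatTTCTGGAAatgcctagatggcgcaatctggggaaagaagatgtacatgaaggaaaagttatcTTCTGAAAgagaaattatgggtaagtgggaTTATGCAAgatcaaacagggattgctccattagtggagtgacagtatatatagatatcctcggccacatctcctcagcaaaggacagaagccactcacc
Lcn2: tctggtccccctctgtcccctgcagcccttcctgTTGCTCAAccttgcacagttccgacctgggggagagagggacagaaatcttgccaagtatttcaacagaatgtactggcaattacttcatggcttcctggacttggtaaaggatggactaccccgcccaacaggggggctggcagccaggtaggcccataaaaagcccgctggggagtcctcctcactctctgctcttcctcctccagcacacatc
S100a8: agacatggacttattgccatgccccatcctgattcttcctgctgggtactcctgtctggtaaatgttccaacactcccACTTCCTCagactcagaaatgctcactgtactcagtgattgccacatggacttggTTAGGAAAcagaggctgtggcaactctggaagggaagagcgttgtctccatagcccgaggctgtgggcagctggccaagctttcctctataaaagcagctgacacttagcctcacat
S100a9: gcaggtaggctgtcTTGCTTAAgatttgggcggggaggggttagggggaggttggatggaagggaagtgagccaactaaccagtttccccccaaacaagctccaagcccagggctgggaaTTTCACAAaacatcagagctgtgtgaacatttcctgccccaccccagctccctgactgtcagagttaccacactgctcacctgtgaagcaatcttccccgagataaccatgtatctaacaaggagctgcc

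The Saa3 window held 4 C/EBP matches, beginning at -216, -191, -129 and -99, and the Lcn2 window held 1, at -216. The S100a8 window held a C/EBP match at -117 and a PU.1 match at -172, and the S100a9 window held C/EBP matches at -236 and -130. At least 4 C/EBP matches were present in 0.852% of the 32851 promoters of the table, each of 300 bases that end 50 bases after the start, and at least 1 in 40.7%. A PU.1 match was present in 3.20% of them. The same search covered the NF-kB motif GGGRNNYYCC (8.46% of promoters), the STAT motif TTCNNNGAA (8.30%) and the AP-1 motif TGANTCA (7.81%). Ptx3 held NF-kB matches at -1 and +1 that overlap each other and a C/EBP match at -57, S100a4 a PU.1 match at +18, and S100a11 AP-1 matches at -136 and -38. S100a6 held none of the 5 motifs. Hp and S100a10 were not matched in the table. These matches are descriptions of letters and were not tested as binding sites.

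Library totals were 20094647 to 20687289 counts in the control group and 19257131 to 20358017 in the ox-LDL group, so depth was nearly even. Short transcripts stood high in ox-LDL replicate 2. There the 351 tested genes shorter than 500 bases had a median of 1.80 log2 units above their mean in the ox-LDL group. The remaining 4 treated libraries were at -0.54 to -0.33. Relative to their mean in the control group, the same genes were at 0.47 and 0.37 in control replicates 1 and 4. TMM factors, which scale the libraries to each other, ran from 0.916 to 1.18 in the controls. In the treated group the factor was 0.593 for replicate 2 and reached 1.19 elsewhere. The members are short, at 263 bases for S100a8, 367 for S100a4, 371 for S100a11, 398 for Saa3, 516 for S100a10 and 582 for S100a6, with Lcn2 at 714, Hp at 1196 and Ptx3 at 1757, lengths implied by the ratio of counts to FPKM. The edgeR fits were therefore run again without ox-LDL replicate 2 and with the trend of expression on length removed from each library, and the exact tests of member levels again without that library.

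The 3 acute phase members that passed the filter on low counts, Saa3, Lcn2 and Hp, were upregulated in ox-LDL-treated macrophages, whereas the S100 members divided, with S100a8 upregulated, S100a4 and S100a6 downregulated, and S100a10 and S100a11 not past the threshold. Of the 10 members, 8 passed the filter on low counts, of which 4 were upregulated and 2 downregulated at the 0.01 level of adjusted p (edgeR quasi-likelihood test, Benjamini-Hochberg over all genes tested). Over all 12654 genes tested, 9.4% were higher and 5.35% lower. For Saa3, Lcn2 and Hp the lowest treated value exceeded the highest control value, as it did for 11.6% of all genes tested, and for S100a4 and S100a6 the highest treated value was under the lowest control value, as for 9.11%. When ox-LDL replicate 2 was left out, 4 members were higher and 3 lower, against 13.5% of 12973 genes tested higher and 11.6% lower. S100a10 was the added one. The 3 lower members, S100a4, S100a6 and S100a10, are short. In the fit without ox-LDL replicate 2, 123 of 358 genes under 500 bases and 261 of 1156 of 500 to 1000 bases were lower. The median log2 fold change of all genes tested was 0.10, or 0.00 without that library and -0.09 with scaling by library size alone.

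**Figure D1:**
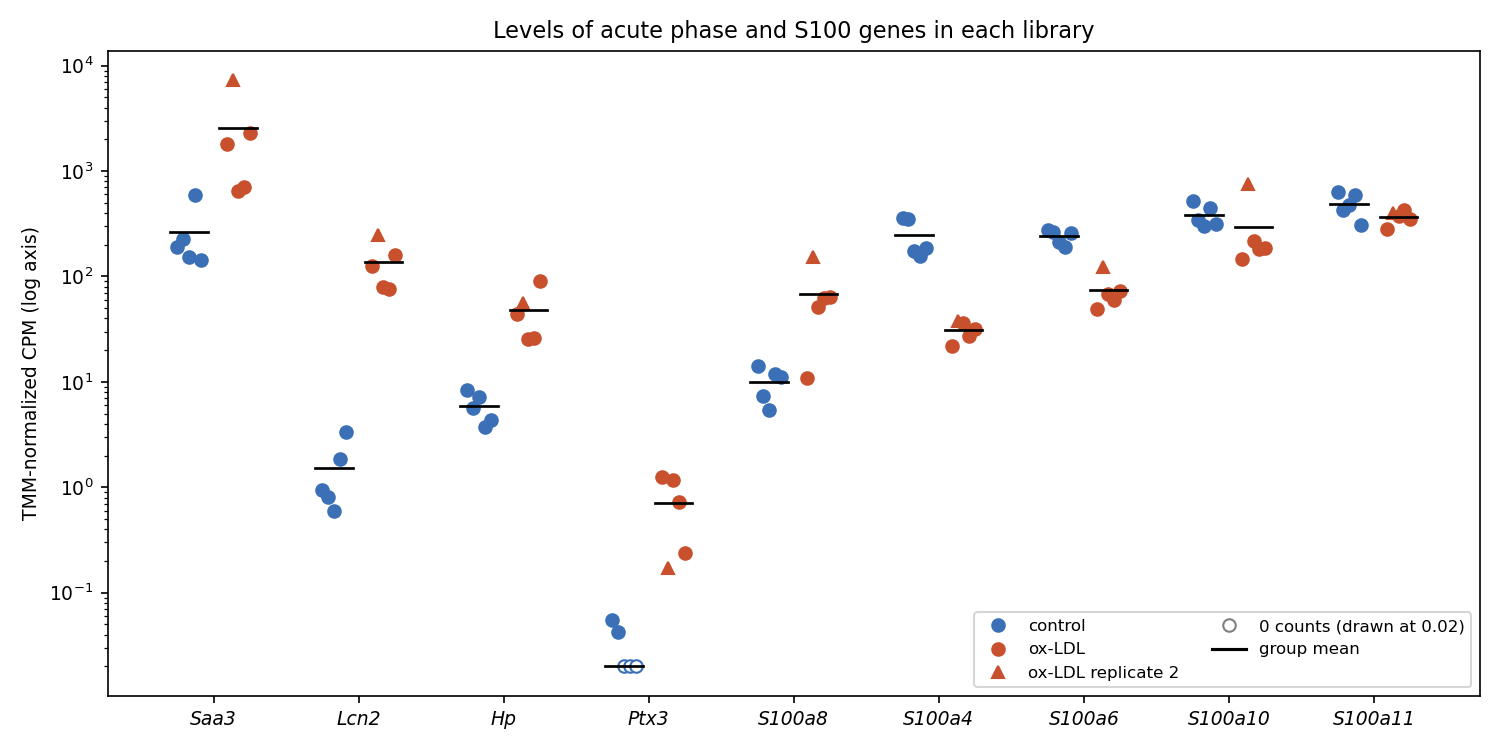
Level of 9 members in each library in TMM-normalized CPM (counts scaled to the depth of the library) on a log axis, with control libraries in blue, ox-LDL libraries in orange, ox-LDL replicate 2 as a triangle, open circles for 0 counts and black bars for group means. Lcn2 reaches at most 3.34 CPM in the controls and is at 76.2 CPM or more in the ox-LDL libraries, while ox-LDL replicate 1 lies among the controls for S100a8.

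Saa3 was the most abundant acute phase member on the FPKM scale. Its TMM-normalized level in the control libraries was 191, 228, 154, 590 and 144 CPM (replicates 1 to 5) and in the ox-LDL libraries 1793, 7308, 649, 708 and 2316 CPM. The groups did not overlap, although control replicate 4 stood above the other controls and only a little under the lowest ox-LDL library. Means were 262 ± 187 CPM in the controls and 2555 ± 2751 CPM after ox-LDL (SD, n = 5 each). The log2 fold change was 3.29 ± 0.72 (SE, edgeR adjusted p = 0.00527), and the exact permutation test of the means gave p = 0.00794, the smallest that 252 arrangements allow. With ox-LDL replicate 2, the highest library, left out, the treated mean was 1367 ± 823 CPM (SD, n = 4) and the log2 fold change 2.34 ± 0.52 (SE, edgeR adjusted p = 0.00445). With the length trend removed it was 3.19 ± 0.43 (SE, edgeR adjusted p = 0.000187). Saa3 was past the 0.01 threshold in 17 of 25 alternative settings and missed it in 8, with edgeR adjusted p-values up to 0.0317. Among them were the fits that left out control replicate 1, 2, 3 or 5 or ox-LDL replicate 5, where the log2 fold change was 3.13 to 3.36. Saa3 lies on the minus strand at chr7:53967368-53971046 (mm9). It shares sequence with other serum amyloid A genes, of which Saa1 had 6 counts in all, each in ox-LDL libraries, and Saa2 and Saa4 had no row. The estimated counts of Saa3 were whole in all 10 libraries, and how reads that match several copies were assigned is not given in the sources used here.

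Lcn2 had the largest fold change of the 8 tested members. It was at 0.940, 0.813, 0.599, 1.85 and 3.34 CPM in the controls and at 126, 245, 79.0, 76.2 and 161 CPM in the ox-LDL libraries. The lowest ox-LDL library was far above the highest control library, replicate 5. The means of 1.51 ± 1.13 and 137 ± 69.7 CPM (SD, n = 5 each) gave a log2 fold change of 6.50 ± 0.58 (SE, edgeR adjusted p = 2.23e-05). The exact permutation p was 0.00794. Its log2 fold change without ox-LDL replicate 2 was 6.14 ± 0.49 (SE, edgeR adjusted p = 1.08e-05), and Lcn2 was past the threshold in all 25 alternative settings. Lcn2 lies on the minus strand at chr2:32240153-32243317 (mm9).

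Hp, which encodes haptoglobin, was at 8.46, 5.65, 7.23, 3.71 and 4.39 CPM in the controls and at 43.7, 56.3, 25.3, 26.4 and 89.6 CPM after ox-LDL. No ox-LDL library came near the control range, and ox-LDL replicate 5 rather than 2 was the highest. Means were 5.89 ± 1.97 and 48.3 ± 26.5 CPM (SD, n = 5 each), with a log2 fold change of 3.03 ± 0.39 (SE, edgeR adjusted p = 0.000198) and an exact permutation p of 0.00794. The log2 fold change without ox-LDL replicate 2 was 2.93 ± 0.40 (SE, edgeR adjusted p = 0.000253), and Hp too was past the threshold in all 25 alternative settings. Hp lies on the minus strand at chr8:112099030-112103072 (mm9).

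Ptx3 was rare and did not pass the filter on low counts, so the edgeR fit with that filter gave it no fold change. Its counts were 1, 1, 0, 0 and 0 in the control libraries and 29, 2, 24, 15 and 4 in the ox-LDL libraries. Each ox-LDL library exceeded each control, with ox-LDL replicates 2 and 5 the lowest of the treated group. Summed over the groups, 2 counts stood against 74, a ratio of 38.0 relative to library totals with a 95% exact interval of 10.2 to 320 that covers counting error only. Leaving out ox-LDL replicate 2 gave a ratio of 46.4 (12.4 to 390). The exact permutation test of the mean CPM gave p = 0.00794. With no filter beyond 1 count in any library, Ptx3 was tested and higher (edgeR adjusted p = 0.000195). Ptx3 lies on the plus strand of chr3:66023809-66029728 (mm9) and overlaps Veph1 on the opposite strand, and since the counting is not stated to use strand, reads of the pair cannot be told apart.

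S100a8 was upregulated, with 4 of the 5 ox-LDL libraries above every control, and S100a9 was barely detected in either group. S100a8 was at 14.2, 7.32, 5.39, 11.9 and 11.2 CPM in the controls and at 10.8, 152, 51.1, 62.1 and 63.7 CPM after ox-LDL. The groups overlapped through ox-LDL replicate 1, which lay within the control range. The log2 fold change was 2.76 ± 0.55 (SE, edgeR adjusted p = 0.00310), and 2.19 ± 0.45 (SE, edgeR adjusted p = 0.00331) without ox-LDL replicate 2. The exact permutation test of the means, 10.0 ± 3.57 and 68.0 ± 51.8 CPM (SD, n = 5 each), gave p = 0.0317 with all libraries and p = 0.0635 without ox-LDL replicate 2, where the smallest possible is 0.0159. S100a8 was past 0.01 in 20 of 25 alternative settings, with adjusted p-values up to 0.0220 in the others, of which 1 left out a single library, control replicate 2 (log2 fold change 2.66, edgeR adjusted p = 0.0107).

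S100a9 had 8 counts in control replicate 5, 5 counts in ox-LDL replicate 5 and 0 counts in the other 8 libraries, where a count of 0 allows up to 0.145 to 0.156 CPM (3 counts of the library). S100a8 had 126 to 258 counts in the controls and 249 to 1779 after ox-LDL, so the transcripts of the calprotectin subunits were far apart in every library. In control replicate 5 the deposited FPKM was 1.01 for S100a9 and 48.1 for S100a8, and in ox-LDL replicate 5 it was 0.640 and 203. S100a9 did not pass the filter, and the ratio of these genes was not tested, since the planned test of its log2 value takes libraries with both genes above 0, of which each group had 1.

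S100a4 and S100a6 were downregulated. S100a4, which binds non-muscle myosin and is known for its link to cell motility, was at 357, 354, 173, 158 and 186 CPM in the controls and at 22.1, 37.4, 36.6, 27.4 and 31.7 CPM after ox-LDL. Control replicates 1 and 2 were the highest, and the lowest control library was well above the highest ox-LDL library. Means were 246 ± 101 and 31.1 ± 6.41 CPM (SD, n = 5 each), so the control mean was 7.91 times the ox-LDL mean, with a log2 fold change of -2.98 ± 0.30 (SE, edgeR adjusted p = 4.38e-05) and an exact permutation p of 0.00794. Leaving out ox-LDL replicate 2 gave -3.10 ± 0.31 (SE, edgeR adjusted p = 3.02e-05), and with the length trend removed and that library left out it was -2.35 ± 0.32 (SE, edgeR adjusted p = 0.000286).

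S100a6, which binds annexins and calcyclin-binding protein (Cacybp), was at 276, 262, 211, 192 and 257 CPM in the controls and at 49.7, 123, 68.3, 59.7 and 72.3 CPM after ox-LDL. The highest treated library was ox-LDL replicate 2, and it too lay below every control. The control mean of 240 ± 36.2 CPM was 3.22 times the ox-LDL mean of 74.5 ± 28.2 CPM (SD, n = 5 each), with a log2 fold change of -1.69 ± 0.26 (SE, edgeR adjusted p = 0.000580). The exact permutation p was 0.00794. The log2 fold change without ox-LDL replicate 2 was -1.98 ± 0.18 (SE, edgeR adjusted p = 1.75e-05). With the length trend also removed it was -1.38 ± 0.22 (SE, edgeR adjusted p = 0.000646). S100a4 and S100a6 were past the threshold in all 25 alternative settings.

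S100a10 was lower in 4 of the 5 ox-LDL libraries and, on the TMM-normalized scale, higher in ox-LDL replicate 2. It was at 521, 344, 303, 447 and 314 CPM in the controls and at 147, 748, 215, 181 and 185 CPM after ox-LDL. The other 4 ox-LDL libraries lay below every control, and ox-LDL replicate 2 lay above every control. With scaling by library size alone, ox-LDL replicate 2 was at 443 CPM, within the control range of 356 to 476 CPM. The log2 fold change was -0.39 ± 0.43 (SE, edgeR adjusted p = 0.557) with all libraries and -1.13 ± 0.21 (SE, edgeR adjusted p = 0.00164) without ox-LDL replicate 2. The exact permutation p went from 0.508 to 0.0159, the smallest that 4 against 5 allow. With the length trend removed the log2 fold change was -0.44 ± 0.13 (SE, edgeR adjusted p = 0.0208), and -0.42 ± 0.13 (SE, edgeR adjusted p = 0.0261) when that library was also left out, neither of them past 0.01.

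S100a11 did not pass the threshold in any of the 25 alternative settings. It was at 629, 427, 473, 590 and 310 CPM in the controls and at 282, 397, 375, 427 and 350 CPM after ox-LDL, so the groups overlapped. Means were 486 ± 129 and 366 ± 54.9 CPM (SD, n = 5 each), with a log2 fold change of -0.41 ± 0.24 (SE, edgeR adjusted p = 0.232) and an exact permutation p of 0.103. Its fold change turned to 0.08 ± 0.35 (SE, edgeR adjusted p = 0.876) with the length trend removed, and to 0.33 ± 0.16 (SE, edgeR adjusted p = 0.126) without ox-LDL replicate 2 as well. With scaling by library size alone, the mean levels of S100a11 and S100a10 were 0.56 and 0.76 log2 units lower after ox-LDL, with exact permutation p-values of 0.0317 and 0.0397. The estimated counts of S100a11 were not whole in any of the 10 libraries, nor were those of S100a8 in 5 and S100a6 in 4, so some of their reads were divided with other features.

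**Figure D2:**
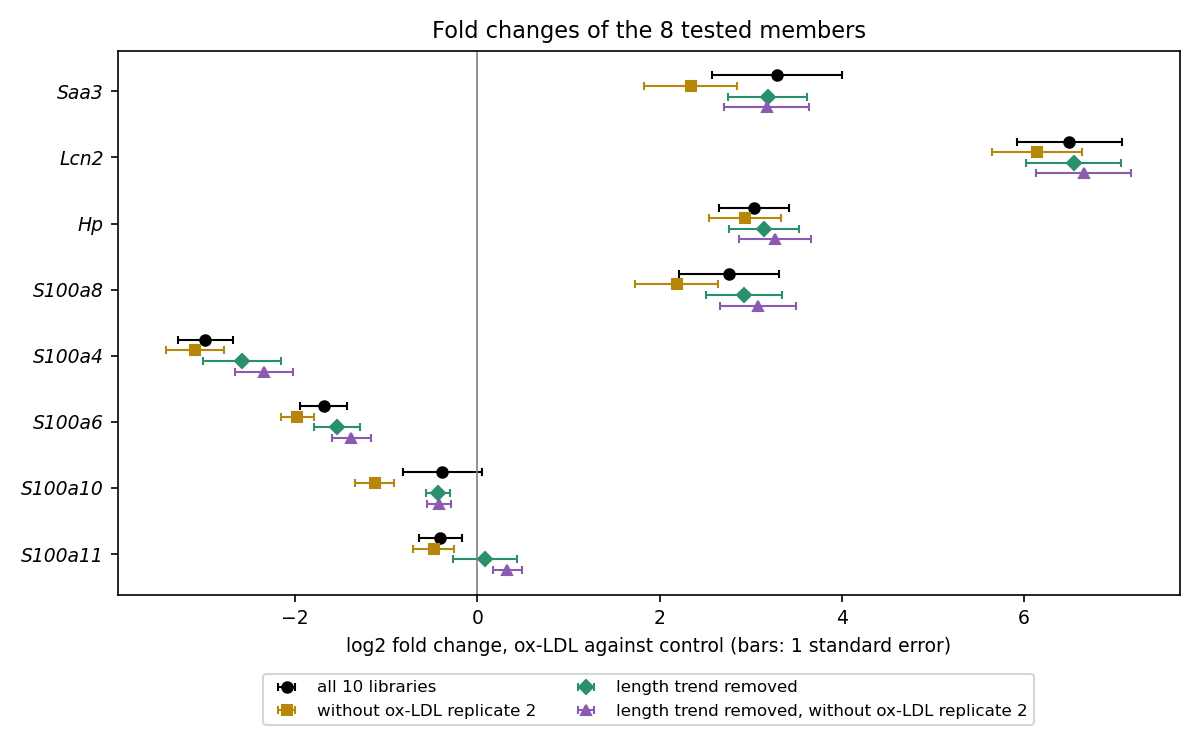
Log2 fold change of ox-LDL against control libraries for the 8 tested members, with bars of 1 standard error, from all 10 libraries (black circles), without ox-LDL replicate 2 (gold squares), with the length trend removed (green diamonds) and with both (purple triangles). Saa3, Lcn2, Hp and S100a8 lie above 2 and S100a4 and S100a6 below -1.3 in each of the 4 fits, while S100a11 crosses 0.

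**Figure D3:**
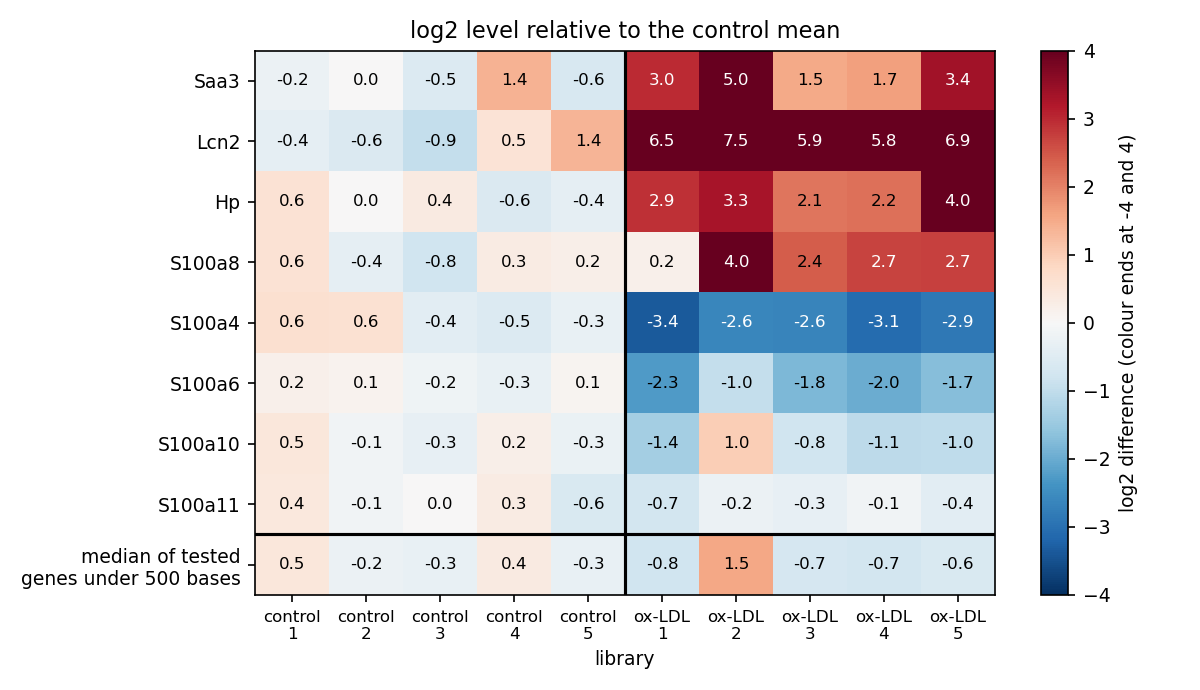
Log2 TMM-normalized level of the 8 tested members in each of the 10 libraries relative to the mean of the 5 controls, above a bottom row with the median of the tested genes under 500 bases. In ox-LDL replicate 2 the short-gene median is 1.54 and S100a10 is 1.0 above the control mean, whereas S100a4 is at -2.6 and S100a6 at -1.0.

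The share of all counts taken by the members moved in opposite directions for the groups of genes. The 4 acute phase genes took 0.0172% to 0.0576% of the counts in the control libraries and 0.0793% to 0.444% in the ox-LDL libraries, nearly all of it Saa3. S100a4, S100a6, S100a10 and S100a11 together took 0.120% to 0.160% in the controls and 0.0526% to 0.0761% after ox-LDL. These ranges did not overlap for either group of genes, ox-LDL replicate 2 included. In bulk RNA, fewer cells of a type and less RNA per cell cannot be told apart.

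Per length, on the FPKM scale, S100a11 led the control group at 1348 ± 244 FPKM, above S100a10 (770 ± 93.9), S100a4 (698 ± 277), Saa3 (670 ± 428) and S100a6 (433 ± 77.4; SD, n = 5 each). The ranges of S100a10, S100a4, Saa3 and S100a6 overlapped from each to the next, whereas S100a11 was clear of S100a10. S100a8 followed at 38.3 ± 10.3 FPKM, clear of S100a6 above it and of Hp below it. Hp was at 5.16 ± 1.62 FPKM and Lcn2 at 2.24 ± 1.80 FPKM, with overlapping ranges. After ox-LDL, Saa3 led at 4860 ± 3552 FPKM, clear of S100a11 (919 ± 242 FPKM). The next in order were S100a10 (457 ± 216), S100a8 (207 ± 102), Lcn2 (165 ± 45.2), S100a6 (112 ± 10.2) and S100a4 (77.4 ± 17.4), each overlapping its neighbour, and then Hp at 35.6 ± 16.8 FPKM (SD, n = 5 each).

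The S100 members lie on chromosome 3 (mm9), in a cluster of 11 S100 genes that spans 184688 bases from S100a1 to S100a9, and, farther along, in a pair formed by S100a11 and S100a10. S100a4 (chr3:90407692-90409967) and S100a6 (chr3:90416816-90418336), the downregulated genes, are both on the plus strand with S100a5 between them. S100a8 (chr3:90472993-90473956, plus strand), the upregulated gene, lies 22597 bases from S100a9 (chr3:90496554-90499643, minus strand). S100a11 (chr3:93324410-93330209) and S100a10 (chr3:93359002-93368565) are 28792 bases apart on the plus strand. Direction thus differed within the cluster, with log2 fold changes of -2.98 for S100a4 and 2.76 for S100a8. Of 12 other S100 genes of a list, 7 had a row and 3 passed the filter, S100a1, S100a13 and S100a16, with log2 fold changes of -0.22, -0.42 and 0.75, none of them past the threshold. In the fit without ox-LDL replicate 2, S100a1 was at -1.63 (edgeR adjusted p = 0.00525) and S100a13 at -1.53 (edgeR adjusted p = 0.000851). Both are short, at 480 and 574 bases. With the length trend removed they were at -0.58 (edgeR adjusted p = 0.159) and -0.65 (edgeR adjusted p = 0.0181). In the fit without ox-LDL replicate 2 and with the length trend kept, tested genes under 500 bases had a median log2 fold change of -0.84, with 123 of 358 lower. Those of 500 to 1000 bases had a median of -0.55, with 261 of 1156 lower. S100a1 belongs to the first of these classes, as do the members S100a4, S100a8, S100a11 and Saa3. S100a10 and S100a13 belong to the second, as do the members S100a6 and Lcn2.

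Among 25 other acute phase genes, 20 had a row, 12 were tested, 8 were higher (66.7%, against 9.4% of all genes tested) and none was lower at an adjusted p below 0.01 (edgeR). Orm1, Orm2, Hamp, Serpina3n and Cfb each had a control library at 0.0856 CPM or less. They passed the filter on low counts through the ox-LDL libraries, where they are high. Their direction followed from that filter, so the share of 66.7% is a description only. The median log2 fold change of the 12 was 4.25, against 0.10 for all genes tested, and it was 3.61 with the rare genes Orm2 and Hamp set at the lower end of their counting intervals. Orm1, an orosomucoid that carries lipophilic ligands in plasma, had the largest log2 fold change at 7.86 ± 0.56 (SE, edgeR adjusted p = 5.62e-06). Cfb, complement factor B, was at 6.72 ± 0.74 (SE, edgeR adjusted p = 7.44e-05). Orm2 had 2 counts in the controls and 112 after ox-LDL, a ratio of 57.5 (95% exact interval 15.6 to 481). Hamp, which encodes the iron hormone hepcidin, had 3 and 85 counts, a ratio of 29.1 (9.63 to 144), and the protease inhibitor Serpina3n had 9 and 225 counts, a ratio of 25.7 (13.3 to 56.9). The other 3 genes past the threshold were Cp, C3 and Il1rn. Lbp, Mt1, Mt2 and Steap4 were tested and not past it, at 0.30, -0.92, 1.49 and 0.74 on the log2 scale. Fga, Apcs and Itih4, typical liver products, had at most 1 count in any library, and Crp, Fgb and Fgg had no row.

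**Figure D4:**
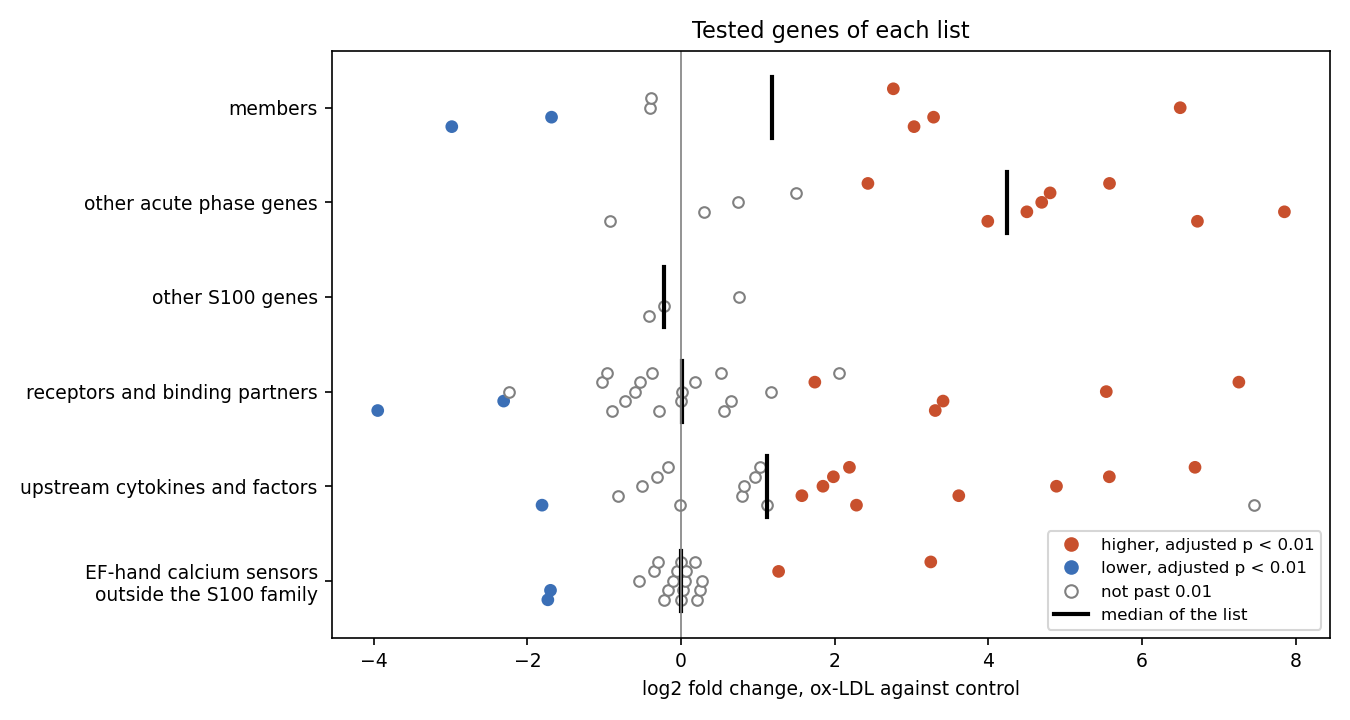
Log2 fold change of ox-LDL against control for each tested gene of 6 lists, with filled points past an adjusted p of 0.01 (orange higher, blue lower), open points not past it, and a black bar at the median of each list. The other acute phase genes have a median of 4.25, whereas the EF-hand genes outside the S100 family have a median of 0.00.

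Among 29 receptors and binding partners of the members, 24 were tested, 5 were higher and 2 lower, with a median log2 fold change of 0.01. That is 20.8% higher and 8.33% lower, against 9.4% and 5.35% of all genes tested. Fpr2, a formyl peptide receptor that serum amyloid A proteins can engage, rose by 7.26 ± 0.61 and its relative Fpr1 by 5.54 ± 0.83 (log2 fold change, SE). Tlr2, also a receptor for serum amyloid A, rose by 3.41 ± 0.30, Hmox1, which degrades haem, by 3.31 ± 0.47 and Cd33, a reported receptor of S100a9, by 1.74 ± 0.24. Cd163, the receptor that takes up haptoglobin bound to haemoglobin, was lower, with 80 counts in the controls and 4 after ox-LDL, a ratio of 0.0514 (0.0137 to 0.137). Cd163 passed the filter on low counts through the controls alone, so its direction followed from the filter. Anxa1, the annexin partner of S100a11, was lower at -2.31 ± 0.39. Anxa2, the partner of S100a10, was at -0.60 ± 0.27 (SE, edgeR adjusted p = 0.119), and Tlr4, the receptor of calprotectin, was at -0.96 ± 0.30 (SE, edgeR adjusted p = 0.0346), neither past 0.01. Tnfaip6, which binds Ptx3 in the matrix around cells, had 3 counts in the controls and 83 after ox-LDL, a ratio of 28.4 (9.40 to 141), and Slc22a17 and Lrp2, receptors of Lcn2, did not pass the filter.

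Among 23 upstream cytokines and transcription factors, 21 were tested, 9 were higher and 1 lower, with a median log2 fold change of 1.11. That is 42.9% higher and 4.76% lower, against 9.4% and 5.35% of all genes tested, and 12 were higher and 2 lower when ox-LDL replicate 2 was left out. Il6, the main inducer of acute phase genes in the liver, had 5 counts in the controls and 476 after ox-LDL, a ratio of 97.8 (41.6 to 303). Il6 passed the filter on low counts through the ox-LDL libraries alone, so its direction followed from the filter. Socs3, a feedback inhibitor of the Il6 receptor pathway, rose by 5.58 ± 0.77, Tnf by 4.89 ± 0.58, Osm by 3.62 ± 0.71 and Nfkb2 by 2.28 ± 0.46 (log2 fold change, SE). Cebpb, a C/EBP factor of acute phase genes, was also higher, at 2.19 ± 0.30 (SE, edgeR adjusted p = 0.000276), as were Nfkbiz, Stat3 and Relb. Cebpd, another C/EBP factor, was at -0.50 ± 0.29 (SE, edgeR adjusted p = 0.219). Without ox-LDL replicate 2, Cebpd was lower at -0.86 (edgeR adjusted p = 0.00827). The PU.1 gene Spi1 was at -0.31 ± 0.23 (SE, edgeR adjusted p = 0.344). Il6ra, the Il6 receptor, was the lower gene in the fit of all libraries, at -1.81 ± 0.23. Il1b, at 7.46 ± 2.03, was not past the threshold (edgeR adjusted p = 0.0180), although its groups did not overlap. Replicate 5 held 49511 of its 53137 ox-LDL counts and 387 of its 409 control counts. Without ox-LDL replicate 5 it was at 3.89 (edgeR adjusted p = 0.0512). With the replicate number fitted as a block it was at 7.46 and past the threshold (edgeR adjusted p = 7.07e-05). All 20 EF-hand genes outside the S100 family were tested, with 2 higher (Ehd1 at 3.25 and Rcn1 at 1.27), 2 lower (Ehd4 at -1.73 and Calm2 at -1.70) and a median of 0.00. That is 10% in each direction, against 9.4% higher and 5.35% lower among all genes tested.

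Marker genes of other cell types were read in the same libraries, since S100a8 is abundant in neutrophils and monocytes. The 14 neutrophil markers with a row, of 17, summed to 11.6 to 44.4 CPM (library-size scaling) in the controls and 3.45 to 15.7 CPM after ox-LDL, most of it Mmp8 and Padi4. The granule genes Mpo and Elane had 2 counts each over all 10 libraries. Other markers of the list moved the other way from the sum, at few counts. Camp had 2 counts in the controls and 45 after ox-LDL, Ngp 2 and 13, and Stfa3 2 and 9. The groups did not overlap for Camp, at up to 0.0506 CPM in the controls and 0.159 CPM or more after ox-LDL. For Stfa3 the highest control and the lowest ox-LDL library were nearly equal, at 0.0508 and 0.0522 CPM. The part of neutrophils in the levels of S100a8 and Lcn2 was not tested. The 5 monocyte markers summed to 17.9 to 260 CPM in the controls and 16.4 to 294 CPM after ox-LDL, and the highest library of each group was replicate 5, where S100a9 was counted. Nearly all of that was Chil3, with 4830 of 6801 control counts and 4910 of 6145 ox-LDL counts in replicate 5, while Ccr2 had 413 counts in the controls and 16 after ox-LDL. The neutrophil markers Retnlg (41 of 44 and 27 of 28 counts) and Fcnb (5 of 6 and 4 of 4) also lay mostly in replicate 5 of the control and ox-LDL groups. The 15 mesothelial and stromal markers summed to 19.8 to 66.2 CPM in the controls and 67.9 to 184 CPM after ox-LDL. That sum was led by Dcn, Col1a1 and Col1a2. Other markers of the list differed from it, with Msln at 11 counts in each group, Lum at 12 and 2 and Wt1 at 135 and 204. Upk3b had 54 and 8 counts, Upk1b 44 and 11 and Lrrn4 51 and 12. Each treated library was above each control in the sum of the 15 markers, as in Saa3 and Lcn2. The part of such cells in the levels of Saa3 and Lcn2 was not tested. Eosinophil and mast cell markers summed to 3.40 to 15.4 and 0.730 to 4.94 CPM, dendritic cell markers to 1.53 to 2.74 and 2.28 to 4.14 CPM, B cell markers to 1.18 to 2.90 and 0.659 to 3.99 CPM, and T and NK cell markers to 0.961 to 2.10 and 1.25 to 2.33 CPM in the control and ox-LDL groups. The 10 macrophage markers summed to 24535 to 44587 CPM in the controls and 13943 to 29322 CPM after ox-LDL, mostly Lyz2. Single markers differed from that sum, with Adgre1 at 179 to 344 and 408 to 1961 CPM, Cd14 at 77.2 to 105 and 199 to 693 CPM, Cd68 at 1069 to 2416 and 1180 to 2294 CPM, and Csf1r at 126 to 225 and 48.6 to 396 CPM.

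The patterns of the members over the 10 libraries were compared with those of 7496 genes, as a description, since the points share the 2 groups and the same libraries. The gene most like Saa3 was Mcemp1 (Pearson r = 0.973 of log2 CPM), followed by Xaf1 and Nupr1. Lcn2 was most like Gbp6 (r = 0.995), Tgtp2 and Iigp1, which are interferon-inducible GTPases, and Hp was most like Cfb (r = 0.983), Ms4a6d and Ifi204. S100a8 was most like Rgcc (r = 0.970), Gch1 and Pusl1. S100a4 was most like Gm38481 (r = 0.967), Mfsd14a and Tnfsfm13, and S100a6 most like Tnfsfm13 (r = 0.970), Cd9 and Susd3. S100a4 and S100a6 were also like each other (r = 0.961). S100a10 was most like Commd2 (r = 0.994), Jtb and Supt4a, none of them past the threshold between groups. S100a11 had no close match, with Anxa3 (r = 0.884) first, then Eif3l and Gm36598.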

How the data were processed

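Bulk RNA sequencing (BGISEQ-500) was read in 10 libraries, 5 per group. The authors used HISAT2 2.0.5 for alignment to mm9, SAMtools 1.4 for sorting and StringTie 1.3.3.13 for assembly. They deposited estimated counts per gene, of which 13.6% were not whole, and a second set of values with no stated unit, treated as FPKM because the gene length it implies was constant (median CV 1.49%). The counting tool and its use of strand are not given in the sources used here. The 9788 circular RNA rows were left out. Estimated counts were rounded and tested with edgeR 4.0.16 (filterByExpr, TMM, robust quasi-likelihood fit, Benjamini-Hochberg over all genes tested), with DESeq2 1.42.0 and limma 3.58.1 as alternatives and R 4.3.3 throughout. The standard errors of fold changes came from the F statistic. Single levels were compared by two-sided exact permutation tests. The length trend was removed from each library by a lowess offset. The fits were tested on simulated data. Named genes were all members and, from each list, at most 5 per direction past the threshold with the largest changes, plus partners and inducers of members. The same rule gave the 3 most similar genes per member (at least 10 CPM). Listed genes outside this rule (such as Cp, C3, Mt1 and Il1b) were named after their values were seen. The members and lists were chosen with earlier results of these data known. Replicate numbers came from the labels and were not used to pair libraries in the main fit. Marker genes were summed as CPM by library size. Positions are mm9 (GENCODE M1, by symbol), and promoters are GRCm38.p6 (RefSeq), where 8 of 10 members matched. Depth was even, and intervals cover counting error only. P-values set the difference between the groups against the spread between these libraries.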

Additional observations from a re-analysis of the deposited data

Results flagged for a closer look

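In 6 of 24 groups of 5 libraries, 1 library stood apart from the rest, its gap to the nearest library divided by the range of the group being above 0.71. Chance alone would give about 1.2 such groups if the groups were independent, which they are not: the share of the acute phase genes is mainly Saa3, and the ratio of S100a9 is 1 because a single library of each group was above 0. For Saa3 the ratio was 0.8124 in the controls, where replicate 4 was at 590 CPM and the next library at 228 CPM. It was 0.7496 in the ox-LDL group, where replicate 2 was at 7308 CPM and the next at 2316 CPM. The share of counts of the 4 acute phase genes gave 0.7693 in the controls, again through replicate 4, at 0.0576% against 0.0265%. S100a10 gave 0.8863 in the ox-LDL group, where replicate 2 was at 748 CPM and the next at 215 CPM. S100a9 gave 1 in both groups, since replicate 5 of each was the one library above 0, with 8 counts in the control and 5 counts in the ox-LDL library.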

How the results depend on the processing

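Lcn2, Hp, S100a4 and S100a6 kept their direction and their side of the 0.01 threshold in all 25 alternatives, with log2 fold changes of 5.77 to 7.03, 2.51 to 3.27, -3.18 to -2.35 and -1.98 to -1.38. Saa3 kept its direction and missed the threshold at 3.23 with no filter on low counts, 2.97 with the replicate block and 3.09 without replicate 5 of both groups, and leaving out 1 library gave 2.34 to 3.82. S100a8 missed it at 2.70, 2.51 and 2.77 under the same 3 settings and at 2.22 by limma on FPKM with every gene above 0, with 2.19 to 3.04 on leaving out 1 library. S100a10 passed without ox-LDL replicate 2 alone, at -1.13 in a range of -1.13 to -0.22. S100a11 reversed to 0.083 and 0.33 with the length trend removed, with and without ox-LDL replicate 2. The mean level of S100a8 was 2.23 log2 units higher without ox-LDL replicate 2 and no longer past 0.05. That of S100a10 was at -0.76 by library size, -0.75 by FPKM and -1.08 without ox-LDL replicate 2, and that of S100a11 at -0.56 and -0.55 by the first pair, all past 0.05. The causes were not tested.

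Genes past the threshold numbered 1866 (1189 higher, 677 lower), 3009 by DESeq2, 1243 by limma on log2(FPKM + 0.1), 1027 by limma with every gene above 0, 2870 with the length trend removed, 3237 with ox-LDL replicate 2 also left out, 3365 at 0.05 and 849 with a log2 fold change beyond 2, and 1262 to 3257 on leaving out 1 library, the highest without ox-LDL replicate 2. Limma on log2(FPKM + 1) gave 555 higher and 750 lower. The deviations of same-numbered libraries from their group means were mixed, with r of 0.443 for replicate 3 and 0.411 for replicate 5. For replicates 1, 2 and 4 r was 0.024, -0.272 and -0.285. Libraries of different number also reached 0.489 (control replicate 4 with ox-LDL replicate 2). With the replicate number as a block, 1434 genes passed, and among members 2 higher and 2 lower. The members past the threshold numbered 4 to 7 in all settings. The test of the log2 ratio of S100a9 to S100a8 and its alternatives were not run, since S100a9 was above 0 in 1 library of each group. Depth limits Ptx3 and S100a9, which rest on a few counts.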
